A study of Mus musculus with 10 samples.

Results

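The SLAM (signaling lymphocytic activation molecule) family was examined in mouse CD8+ T cells that had met 4T1 mammary carcinoma cells in culture, with and without sodium acetate (NaAc). The 9 genes were taken by name from the deposited table of 57825 genes: the receptors Slamf1, Slamf6, Slamf7, Slamf9, Ly9, Cd84 and Cd48, and the SH2-domain adaptors Sh2d1a and Sh2d2a. Each of the 9 names was listed. All 9 passed the filter used for testing, a mean of at least 0.5 FPKM (fragments of a gene divided by its length and by the depth of the library) over the 10 samples, as did 15710 genes in all.

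SLAM receptors are immunoglobulin-superfamily molecules of hematopoietic cells, and most of them bind a copy of themselves on the neighboring cell. CD48 has no signaling tail, is anchored in the membrane by a lipid, and is the ligand of 2B4 (Cd244a) and of CD2. The cytoplasmic tails of SLAMF1, Ly9, CD84, SLAMF6 and SLAMF7 carry tyrosine switch motifs that bind small adaptors of the SAP family. SAP (Sh2d1a) brings in the kinase Fyn, and the same tails can bind inhibitory phosphatases when SAP is missing. Loss of SAP causes X-linked lymphoproliferative disease, in which cytotoxic T cells fail to control virus-infected B cells. TSAd (Sh2d2a), a related T cell adaptor, is known for binding Lck.

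Splenic CD8+ T cells of female Balb/c mice were activated on anti-CD3 with anti-CD28 and IL-2 for 12 h, and the study used mice 7 to 8 weeks old. The CD8+4T1+NaAc group (5 samples) received 5 mM NaAc for 24 h before 48 h with 4T1 cells, and the CD8+4T1 group (5 samples) did not. Both groups thus shared the activation and the tumor cells, the labels place both at day 3, and RNA came from the CD8+ T cells after purification. The question was how acetate changes the transcriptome of T cells that meet tumor cells. Neither the labels nor the methods say whether the 5 samples of a group came from separate mice, so p-values measure the spread between these samples, which may be technical.

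The FPKM referred to between 16306447 and 18853726 fragments per sample, and the fragments behind each value could be recovered from the gene lengths. Cd8a lay between 72.2 and 81.9 FPKM in the 10 libraries. Replicate 1 stood apart in both groups by its number of genes above 0 (22291 in CD8+4T1 and 20233 in CD8+4T1+NaAc, against 23786 to 25088 in the other 8 libraries). Of 11 T cell markers, 6 were lower (Cd3d, Cd3e, Cd3g, Cd5, Lat and Cd2) and 1 was higher (Zap70) with NaAc. Cd8a, Cd8b1, Cd28 and Cd247 did not pass the test. Over all genes tested, 19.0% were called lower and 17.6% higher. The summed level of the 11 was 749.7 to 854.2 FPKM without and 651.0 to 783.5 FPKM with NaAc. Of 12 epithelial and 4T1 markers, 7 were tested, 5 were higher and none was lower. The sum of the 12 was 18.4 to 32.8 FPKM without and 119.6 to 270.1 FPKM with NaAc, while Krt19, Cldn4 and Esrp1 stayed under 0.5 FPKM in every library. Epcam (log2 fold change 0.41, limma adjusted p = 0.305) and Cldn7 (-0.0027, adjusted p = 0.994) did not pass the test. Among the 5, Krt7 averaged 0.143 FPKM without and 1.79 FPKM with NaAc, so it passed the filter only through the NaAc libraries. The listed genes held 95.5% to 97.9% of the fragments without and 89.8% to 92.1% with NaAc. The part of these differences in the values given here was not tested, beyond the rescaling described with the receptors that did not pass the test. In bulk samples, fewer cells of a type and less RNA per cell cannot be told apart.

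With NaAc, Slamf6 (SLAMF6, also called Ly108) rose and Slamf9 fell, each by more than 2-fold, while Slamf7 and Sh2d2a rose by smaller amounts. Slamf1, Cd84, Ly9, Cd48 and Sh2d1a did not pass the test. In limma on log2(FPKM + 0.1), 4 of the 9 genes (44.4%) thus had a Benjamini-Hochberg adjusted p under 0.05, against 36.5% of all genes tested. Of these, 3 were higher and 1 was lower, where 17.6% of all genes were called higher and 19.0% lower, so the number of called members was close to the background. A called change over 1 on the log2 scale was found for 2 of 9 members and for 6.47% of all genes. The median log2 fold change was 0.06 over the members and -0.02 over all genes tested.

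**Figure D1:**
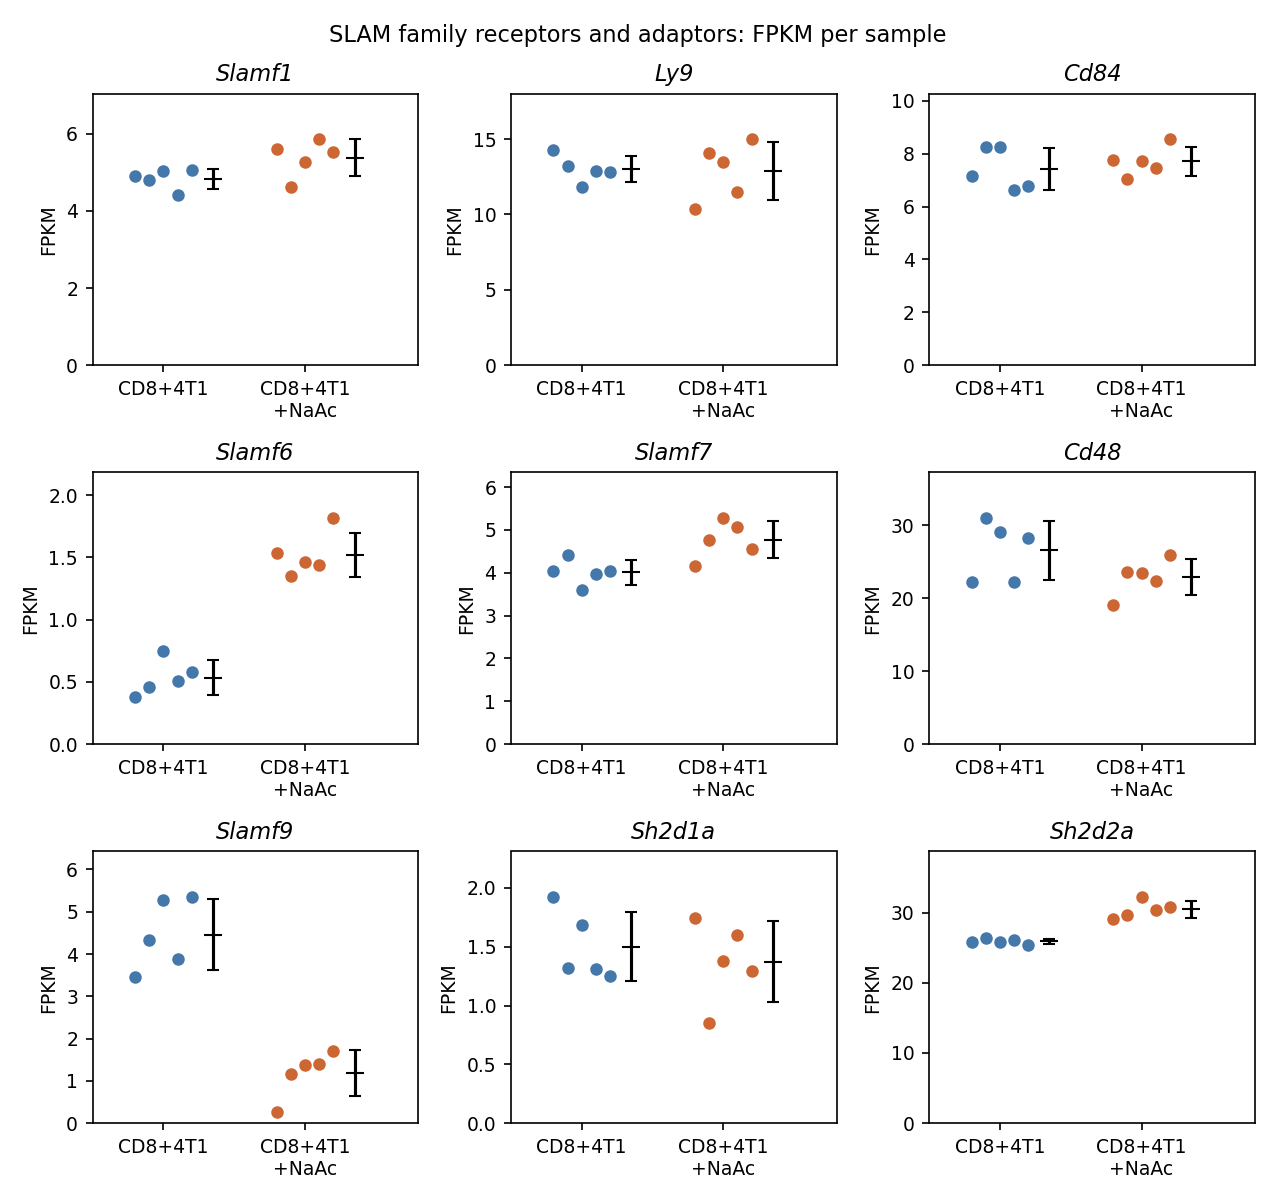
FPKM of each SLAM family gene (linear axes from 0, 1 panel per gene), with a point for each of the 5 CD8+4T1 and 5 CD8+4T1+NaAc libraries and bars for the group mean ± SD. Slamf6, Slamf9 and Sh2d2a are the genes whose 2 groups do not overlap, and replicate 1 with NaAc holds the lowest Slamf9 value, 0.267 FPKM.

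Slamf6 is a receptor that binds itself on other cells and, on exhausted CD8+ T cells, marks the less differentiated, self-renewing subset. Its level was 0.376, 0.455, 0.747, 0.504 and 0.582 FPKM in CD8+4T1 replicates 1 to 5, and 1.53, 1.35, 1.46, 1.44 and 1.82 FPKM in CD8+4T1+NaAc replicates 1 to 5. Every NaAc library lay above every library without it. The values rested on 68 to 132 fragments per library without and 261 to 327 with NaAc. The mean rose from 0.533 ± 0.141 to 1.52 ± 0.179 FPKM (SD, n = 5 per group), a ratio of 2.85. The log2 fold change was 1.38 (SE 0.18, 95% interval 0.97 to 1.78, limma adjusted p = 0.000253), and the exact permutation test over all 252 divisions of the 10 libraries gave its smallest possible two-sided p, 0.00794.

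Slamf9 is an unusual member with a short tail and no switch motif, described mainly in macrophages and dendritic cells, including plasmacytoid ones. It stood at 3.46, 4.32, 5.28, 3.88 and 5.35 FPKM in CD8+4T1 replicates 1 to 5, and at 0.267, 1.17, 1.38, 1.40 and 1.70 FPKM with NaAc. Again the groups did not overlap, and replicate 1 with NaAc was far below the other 4. That lowest value came from 6 fragments, for which an exact Poisson 95% interval (counting error only) runs from 0.098 to 0.582 FPKM, so it lay below the other 4 libraries beyond counting error. The gene is short, and the values rested on 76 to 116 fragments without and 6 to 37 with NaAc. Mean Slamf9 fell from 4.46 ± 0.838 to 1.18 ± 0.545 FPKM (SD, n = 5 per group), 3.77-fold lower. The log2 fold change was -1.99 (SE 0.38, 95% interval -2.83 to -1.14, limma adjusted p = 0.00229), and the two-sided exact permutation p was again 0.00794. Without replicate 1 with NaAc, the log2 fold change was -1.58, and the gene was still called, as were 44.3% of all genes in that fit.

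Because Slamf9 is known from myeloid cells and Slamf6 also from CD4+ T cells, their markers were read in the same libraries. Of 8 macrophage and monocyte markers, 5 were tested, 1 was higher and 1 lower, and the sum was 27.8 to 37.2 FPKM without and 28.2 to 32.6 FPKM with NaAc. Csf1r, Adgre1 and Itgam were under 0.5 FPKM in every library. For plasmacytoid dendritic cells, 2 of 4 markers were tested and neither was called, the sum was 94.1 to 110.5 against 79.9 to 112.3 FPKM, nearly all of it Bst2 (means 97.5 and 94.6 FPKM), and the defining marker Siglech was at 0 in all 10 libraries. Ccr9, below the filter, had means of 0.106 and 0.300 FPKM and did not overlap between the groups. Dendritic cell markers summed to 18.9 to 22.6 against 29.7 to 33.4 FPKM, with 2 of 8 higher (H2-Aa and Cd74), none lower, and Flt3, Xcr1 and Clec9a under 0.5 FPKM throughout. Most of that sum was Cd74, at a mean of 11.0 FPKM without and 22.1 FPKM with NaAc, while Zbtb46 (log2 fold change -0.12), Itgax (0.07) and H2-Ab1 (-0.11) did not pass the test.

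Of the 3 CD4+ T cell markers, 2 were tested. Cd4 rose, from 0.335 to 0.796 FPKM without NaAc to 1.39 to 1.87 FPKM with it (log2 fold change 1.44, limma adjusted p = 0.000317). Cd40lg did not pass the test (log2 fold change 0.53, limma adjusted p = 0.176). Foxp3 was under 0.5 FPKM in every library, with means of 0.221 FPKM without and 0.179 FPKM with NaAc. The 3 summed to 0.812 to 1.54 against 1.98 to 2.80 FPKM. The T cells had been isolated from spleen with a magnetic CD8+ T cell kit (EasySep), a step meant to remove such cells, and their part in the Slamf6 and Slamf9 differences was not tested.

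Read together, the ratio of Slamf9 to Slamf6 differed between the groups in every library. Slamf9 exceeded Slamf6 in every CD8+4T1 library, by factors of 9.22, 9.50, 7.06, 7.70 and 9.20 on the FPKM scale. With NaAc, Slamf6 was 5.74, 1.15, 1.05, 1.03 and 1.07 times Slamf9. In replicates 2 to 5 Slamf9 rested on 29 to 37 fragments, and its Poisson 95% interval (0.785 to 1.68 FPKM in replicate 2) held the Slamf6 value, so the order of the receptors was not resolved there. The wide margin belonged to replicate 1, the library with 6 Slamf9 fragments.

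**Figure D2:**
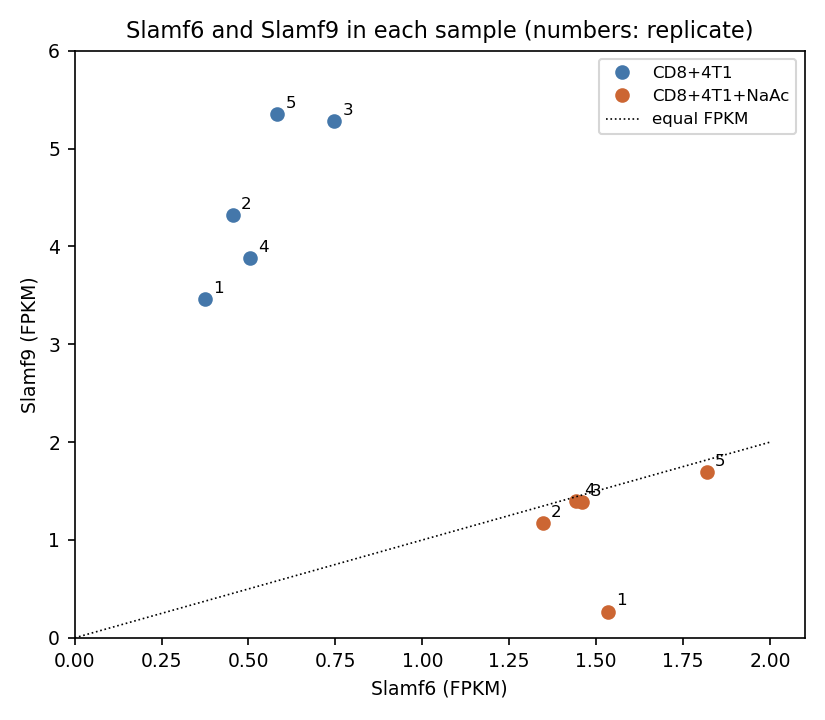
Slamf6 (horizontal) against Slamf9 (vertical) in FPKM on linear axes, with each of the 10 libraries as a point labelled by replicate number and a line of equal level. The 5 CD8+4T1 libraries lie above the line and the 5 CD8+4T1+NaAc libraries below it, 4 of them close to it.

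The sequences just upstream of these genes are shown because they moved in opposite directions although both lie on the plus strand of the same part of chromosome 1. The windows run from 250 bases before to 50 bases after the annotated start in RefSeq for GRCm38.p6. The set of promoter windows used here held 6 of the 9 genes (Slamf1, Slamf6, Slamf7, Slamf9, Cd84 and Cd48). The first is chr1:171917212-171917511 (plus strand) and the other chr1:172475110-172475409 (plus strand), and capitals mark matches to any of the 6 motifs searched on both strands.
Slamf6: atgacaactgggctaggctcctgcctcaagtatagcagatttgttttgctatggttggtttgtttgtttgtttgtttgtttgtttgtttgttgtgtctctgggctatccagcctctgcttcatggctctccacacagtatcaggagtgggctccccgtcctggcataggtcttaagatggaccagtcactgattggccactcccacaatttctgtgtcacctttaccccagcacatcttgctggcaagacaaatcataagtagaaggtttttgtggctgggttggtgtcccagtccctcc
Slamf9: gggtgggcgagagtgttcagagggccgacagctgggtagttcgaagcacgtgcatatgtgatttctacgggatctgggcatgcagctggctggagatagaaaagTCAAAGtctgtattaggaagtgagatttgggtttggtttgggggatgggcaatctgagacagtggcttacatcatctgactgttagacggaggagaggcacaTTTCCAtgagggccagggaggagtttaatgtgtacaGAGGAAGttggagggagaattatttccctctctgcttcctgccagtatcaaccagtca
In the Slamf9 window the matches were a TCF/LEF-type CTTTGA on the minus strand at position -146 from the start, an NFAT-type TGGAAA on the minus strand at -44, and an ETS-type GAGGAAG on the plus strand at -8. None of these matches overlapped another. The Slamf6 window held no match to these letters, nor to the T-box-type GGTGTGA, the AP-1-type TGANTCA or the E-box CAGGTG. Among all 32851 promoter windows of that set, CTTTGA was found in 16.0%, TGGAAA in 21.4%, GAGGAAG in 13.6%, GGTGTGA in 3.98%, TGANTCA in 7.81% and CAGGTG in 20.2%. Each match is a description of the letters and not a measured site.

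Slamf7 (CRACC) is a self-binding receptor of NK cells, activated CD8+ T cells and plasma cells. It was measured at 4.04, 4.42, 3.60, 3.96 and 4.04 FPKM in CD8+4T1 replicates 1 to 5, and at 4.17, 4.77, 5.28, 5.06 and 4.57 FPKM with NaAc. Of the NaAc libraries, 4 lay above the highest one without NaAc, and replicate 1 lay inside that range. Mean Slamf7 rose from 4.01 ± 0.291 to 4.77 ± 0.435 FPKM (SD, n = 5 per group), with a log2 fold change of 0.24 (SE 0.08, 95% interval 0.06 to 0.42). The limma adjusted p was 0.0368, and the two-sided exact permutation p was 0.0159. The call depended on the libraries and the setting: it was lost without any 1 of 7 of the 10 (CD8+4T1 replicates 1, 3, 4 and 5, and CD8+4T1+NaAc replicates 2, 3 and 4), with adjusted p from 0.00927 to 0.0914 over the 10 fits, and without the filter on low values (adjusted p = 0.0733), where 17.0% of 32272 genes were called. It was firmer with array weights (log2 fold change 0.33, adjusted p = 0.00306) and in the rescalings given with the receptors that did not pass the test. Of 4 plasma cell markers, Sdc1 was higher, Tnfrsf17 was at 0 in every library, and Jchain and Mzb1 were under 0.5 FPKM throughout. The sum, nearly all of it Sdc1 (means 5.05 and 12.5 FPKM), was 4.68 to 6.18 against 9.25 to 15.7 FPKM. Of 4 NK cell markers, Eomes was higher, Ncr1 and Klrb1c were under 0.5 FPKM in every library, and Klre1 did not pass the test (log2 fold change -0.04). The sum was 9.59 to 11.0 against 12.5 to 14.5 FPKM, nearly all of it Eomes (means 9.46 and 12.7 FPKM), a gene that CD8+ T cells also express. The part of both in the Slamf7 difference was not tested.

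Slamf1 (CD150), the founding receptor of the family, binds itself and is induced on activated T cells. Without NaAc it lay at 4.90, 4.81, 5.02, 4.41 and 5.05 FPKM, and with NaAc at 5.61, 4.61, 5.27, 5.87 and 5.54 FPKM, in the order of the replicates. Only replicate 2 with NaAc fell inside the range of the other group. The log2 fold change was 0.15 (95% interval -0.02 to 0.31, limma adjusted p = 0.148), so a difference of up to 1.24-fold was inside the interval. Without replicate 2 with NaAc, Slamf1 passed the test (log2 fold change 0.20, adjusted p = 0.0383).

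Cd84, a self-binding receptor of T and B cells, was at 7.15, 8.24, 8.26, 6.61 and 6.76 FPKM without and 7.76, 7.06, 7.73, 7.46 and 8.56 FPKM with NaAc. The groups overlapped widely, with a log2 fold change of 0.06 (95% interval -0.12 to 0.24, limma adjusted p = 0.588).

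Ly9 (CD229), which also binds itself, was the second most abundant receptor, at 14.3, 13.2, 11.8, 12.9 and 12.8 FPKM without and 10.4, 14.1, 13.5, 11.5 and 15.0 FPKM with NaAc. The NaAc libraries spread on both sides of the others, and the log2 fold change was -0.02 (95% interval -0.24 to 0.19, limma adjusted p = 0.873). The whole span of Ly9 lies inside Cd244a on the opposite strand, and the strand setting of the counting is not given in the sources used here. Cd244a itself held 23 fragments or fewer in every library, against 587 or more for Ly9.

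Cd48, the ligand of 2B4 and CD2, was the most abundant receptor gene in every library. It stood at 22.3, 31.1, 29.1, 22.3 and 28.2 FPKM without and 19.1, 23.6, 23.5, 22.3 and 26.0 FPKM with NaAc. The spread was wide without NaAc, and 4 of the 5 NaAc values lay inside it. The log2 fold change was -0.21 (95% interval -0.46 to 0.04, limma adjusted p = 0.176).

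The scaling of the libraries bore on these smaller differences. Rescaling every library to the same total over the listed genes moved the median of all genes to 0.15 on the log2 scale, and scaling to the T cell markers moved it to 0.16. Under these, Slamf1 (0.32 and 0.32, limma adjusted p = 0.0117 and 0.0140) and Cd84 (0.24 and 0.24, adjusted p = 0.0437 and 0.0419) were called higher, and 6 of the 9 members were called, against 40.0% and 36.8% of all genes. Relative to the median of all genes, however, their log2 fold changes hardly moved: 0.16 for Slamf1 as deposited and 0.17 in both rescalings, and 0.08 for Cd84 in all of them. Slamf7 went to 0.42 in both rescalings (limma adjusted p = 0.00266 and 0.00481) and Sh2d2a to 0.41 in both, and relative to the median both were at 0.26, against 0.26 and 0.25 as deposited. On that relative scale Slamf6 was at 1.39 as deposited and 1.38 in both rescalings, and Slamf9 at -1.97 and -1.98. Ly9 went from -0.02 to 0.15 and Sh2d1a from -0.14 to 0.03 in both rescalings without passing the test, and relative to the median their signs did not change. Ly9 was then at -0.0073 as deposited and -0.0026 and -0.0025 in the rescalings, and Sh2d1a at -0.12 and -0.13.

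**Figure D3:**
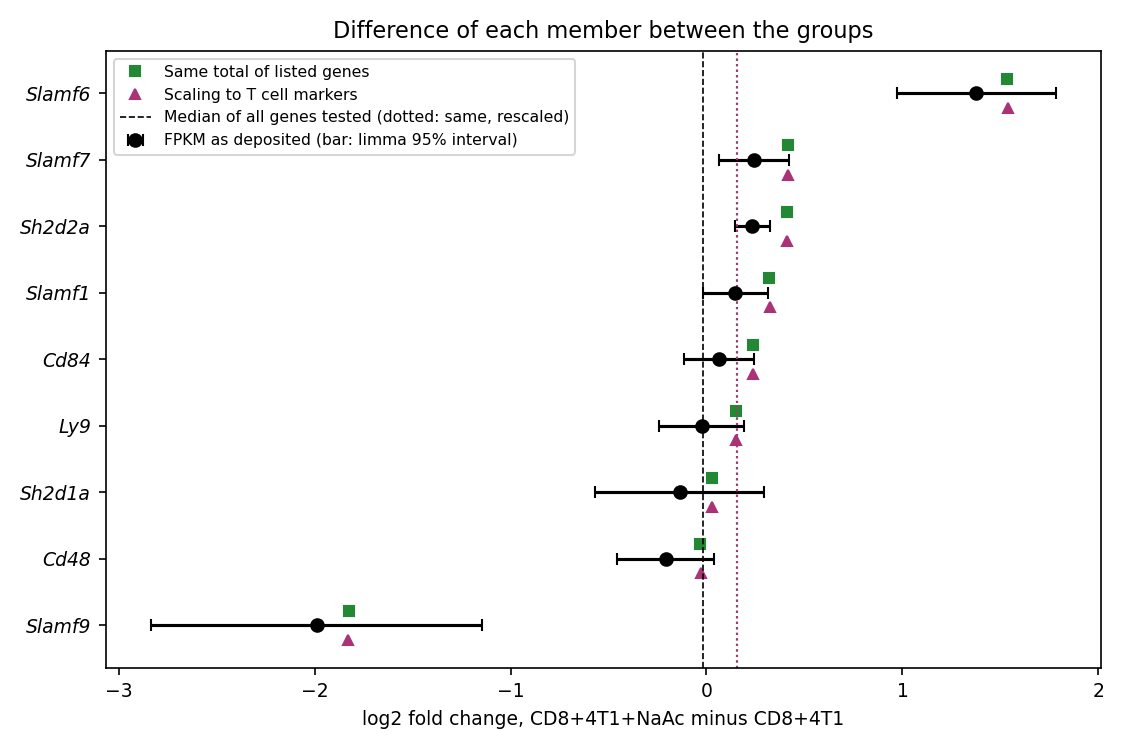
log2 fold change (CD8+4T1+NaAc minus CD8+4T1) of each gene, with limma 95% intervals as bars for the FPKM as deposited, and squares and triangles for 2 rescalings. Slamf6 and Slamf9 lie far outside the medians of all genes (dashed and dotted lines), and the rescalings shift all 9 genes to the right by a like amount.

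The adaptors differed from each other. Sh2d2a, encoding TSAd, was at 25.8, 26.3, 25.8, 26.2 and 25.4 FPKM in CD8+4T1 replicates 1 to 5 and at 29.1, 29.7, 32.3, 30.4 and 30.8 FPKM with NaAc. The groups did not overlap, and the values rested on 2485 or more fragments per library, the most of any member. Its mean rose by 17.7%, from 25.9 ± 0.384 to 30.5 ± 1.21 FPKM (SD, n = 5 per group). This gave a log2 fold change of 0.23 (SE 0.04, 95% interval 0.14 to 0.32, limma adjusted p = 0.00114, two-sided exact permutation p = 0.00794). Non-overlapping groups were thus found for 3 of the 9 members (Slamf6, Slamf9 and Sh2d2a) and for 26.4% of all genes tested.

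Sh2d1a, encoding SAP, was the adaptor that binds the SLAM tails directly, and it lay far lower. Its level was 1.92, 1.32, 1.68, 1.31 and 1.25 FPKM without and 1.74, 0.848, 1.38, 1.60 and 1.29 FPKM with NaAc. The groups overlapped over most of their range, and the log2 fold change of -0.14 had an interval from -0.57 to 0.30 (limma adjusted p = 0.621). The EAT-2 adaptors, relatives of SAP known from NK and antigen-presenting cells, were below the filter: Sh2d1b1 was at 0.113 to 0.212 FPKM without and 0.186 to 0.417 FPKM with NaAc, and Sh2d1b2 rested on 0 to 2 fragments per library. In the fit without a filter neither passed the test (adjusted p = 0.161 and 0.614).

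Ordered by mean level without NaAc, the genes ran Cd48 (26.6 FPKM), Sh2d2a (25.9), Ly9 (13.0), Cd84 (7.41), Slamf1 (4.84), Slamf9 (4.46), Slamf7 (4.01), Sh2d1a (1.50) and Slamf6 (0.533). The ranges of Cd48 and Sh2d2a overlapped, as did those of neighbors among Slamf1, Slamf9 and Slamf7, and the other neighbors were separate. With NaAc the order became Sh2d2a (30.5), Cd48 (22.9), Ly9 (12.9), Cd84 (7.71), Slamf1 (5.38), Slamf7 (4.77), Slamf6 (1.52), Sh2d1a (1.37) and Slamf9 (1.18). There the neighbors Slamf1 and Slamf7, Slamf6 and Sh2d1a, and Sh2d1a and Slamf9 overlapped. By mean, Slamf9 thus moved from the middle of the order to its end, and Slamf6 left the last place. The last place of Slamf9 rested on its value in replicate 1 with NaAc (0.267 FPKM), and its order against Sh2d1a was not resolved. By mean over all libraries, the members ranged from the 16.1 percentile (Slamf6) to the 87.5 percentile (Sh2d2a) of the genes tested.

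As shares of the summed FPKM of the 7 receptors, Cd48 and Ly9 made up most of the family in both groups. Cd48 held 39.5% to 46.7% without and 39.1% to 41.7% with NaAc, and Ly9 18.6% to 25.2% and 20.9% to 24.8%. The share of Slamf9 fell from 6.13% to 8.52% without NaAc to 2.07% to 2.69% in replicates 2 to 5 with NaAc and 0.548% in replicate 1. Slamf6 went from 0.665% to 1.17% up to 2.38% to 3.14%, with no overlap. Slamf7 went from 5.64% to 7.27% to 7.23% to 9.19%, and Slamf1 from 7.22% to 8.67% to 8.13% to 11.5%, both overlapping. The sum itself was 54.5 to 66.5 FPKM without and 48.8 to 63.2 FPKM with NaAc. Shares of a sum depend on each other and were not tested.

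**Figure D4:**
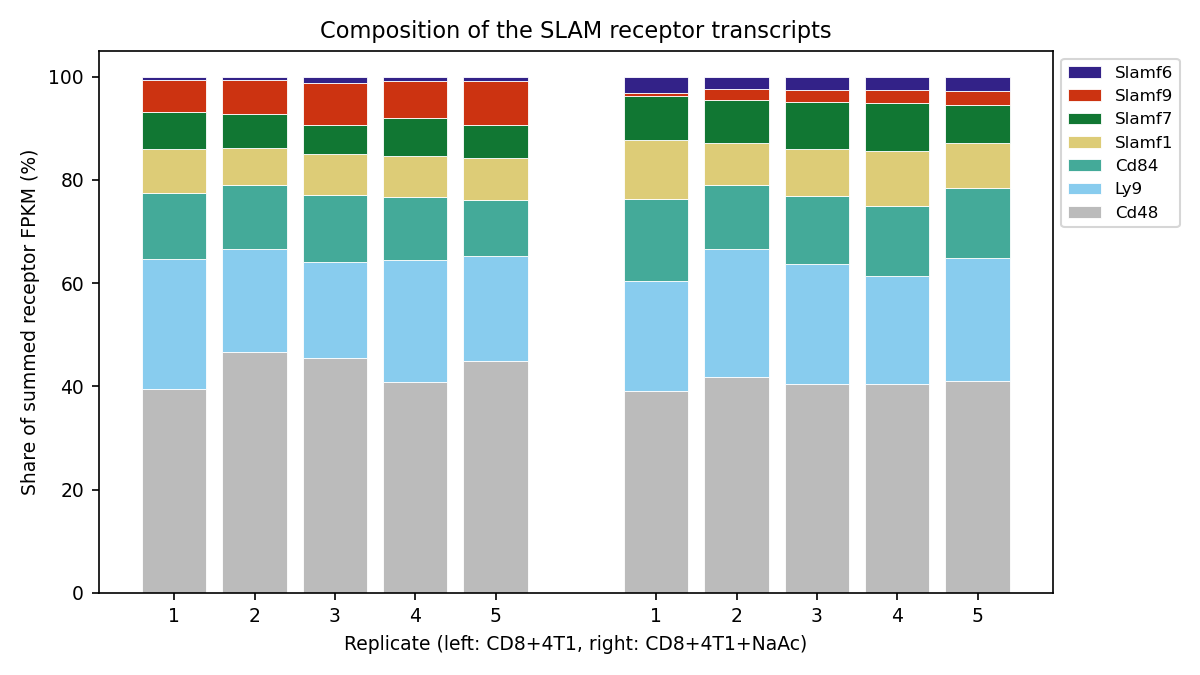
Share of each of the 7 SLAM receptor genes in their summed FPKM (percent, stacked bars from 0) for each library, grouped by condition. Cd48 and Ly9 fill most of every bar, and the Slamf9 segment is narrower in all 5 CD8+4T1+NaAc libraries, most of all in replicate 1.

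The other receptors of the family, Cd244a and Slamf8, lay below the filter. Cd244a, encoding the CD48 receptor 2B4 of NK cells and effector or exhausted CD8+ T cells, rested on 1, 3, 5, 2 and 4 fragments without and 18, 23, 20, 15 and 18 fragments with NaAc. The libraries did not overlap, at 0.0123 to 0.0629 FPKM without and 0.182 to 0.250 FPKM with NaAc. In the fit without a filter the log2 fold change was 1.25 (SE 0.21, adjusted p = 0.00232, limma), a scale on which the pseudocount of 0.1 exceeds the level without NaAc. Because Cd244a shares its span with the far more abundant Ly9 on the other strand, its reads are uncertain. Slamf8, a receptor of myeloid cells, rested on 0 to 12 fragments per library and did not pass the test (adjusted p = 0.439).

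Of 21 further genes of the SLAM pathway, 17 were tested, and 5 were higher and 5 lower with NaAc, where 17.6% of all genes tested were called higher and 19.0% lower. The median log2 fold change of the 17 was -0.06. Among the 10 effectors reached through SAP, 4 were higher and 3 lower. The phospholipase gene Plcg2 rose most, from 4.68 ± 0.563 to 9.91 ± 0.767 FPKM (SD, n = 5 per group; log2 fold change 1.07, limma adjusted p = 2.40e-05), and Plcg1 rose by 0.31 and the kinase gene Pak1 by 0.57 on the log2 scale. Arhgef7, an exchange factor, rose by 0.19, a call lost in 6 of 10 fits that left out 1 library and without the filter. The exchange factor gene Vav1 and the adaptor gene Nck1 were lower, by -0.27 and -0.26, and the Nck1 call was lost in 6 of 10 fits that left out 1 library and without the filter. Fyn, the kinase that SAP recruits, was at 73.3 to 75.2 FPKM without and 68.8 to 81.9 FPKM with NaAc and did not pass the test (log2 fold change -0.01, adjusted p = 0.888).

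Lck, the Src-family kinase of the T cell receptor and a partner of TSAd, fell from 131 to 147 FPKM down to 108 to 120 FPKM (log2 fold change -0.32, limma adjusted p = 0.000614). Txk, a kinase of the Tec family, rose by 0.56 on the log2 scale. Of the 4 phosphatases and inhibitory enzymes, Ptpn6 (SHP-1) fell, from 125 ± 4.05 to 94.7 ± 2.22 FPKM (SD, n = 5 per group; log2 fold change -0.40, adjusted p = 5.91e-05), and Ptpn11, Inpp5d and Csk were not called. Cd2, which shares the ligand CD48, was lower by -0.29, a call lost in 8 of 10 fits that left out 1 library, without the filter, and without the variance trend and robust moderation. After rescaling to the same total the counts became 7 higher and 2 lower, and after scaling to the T cell markers 8 higher and 1 lower: Vav1, Nck1 and Cd2, itself one of the T cell markers, were no longer called in either, and Lck not in the latter. Calls were gained as well: Fyn (0.17 in both, limma adjusted p = 0.0266 and 0.0213) and Csk (0.26 in both, adjusted p = 0.00794 and 0.0115) were called higher in both, and Inpp5d (0.17, adjusted p = 0.0428) with the T cell markers. Relative to the median of all genes these values hardly moved. Lck was at -0.30 as deposited and -0.29 in both rescalings, Cd2 at -0.27 and then -0.26, and Vav1 (-0.25) and Nck1 (-0.24) were the same in all 3.

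The 7 receptor genes lie in a cluster on chromosome 1, listed by the deposited table between 171416192 (start of Ly9) and 172306142 (end of Slamf9), a span of 890.0 kb. By the same listing Slamf6 occupies 171745082 to 171780737 and Slamf9 172302925 to 172306142, both on the plus strand, with 522.2 kb between them. Slamf7 (171459971 to 171480603) and Ly9 (to 171434978) are on the minus strand, and Cd48 (171509577 to 171532826), Slamf1 (171594695 to 171628752) and Cd84 (171667265 to 171718285) on the plus strand. The adaptors lie elsewhere, Sh2d1a on chromosome X (41591330 to 41618207, plus strand) and Sh2d2a on chromosome 3 (87754062 to 87763029, plus strand). The build of these positions is not given in the sources used here, and they are not those of the GRCm38.p6 windows above.

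Called and uncalled genes were interspersed within the cluster. Between Ly9 and Slamf6, a stretch of 364.5 kb, Slamf7 and Slamf6 were higher, and Cd48, Slamf1, Cd84 and Ly9 were not called. Of the 15 other protein-coding genes of the span, 9 were tested, and 3 of these (33.3%) were higher and none lower, against 36.5% of all genes called in either direction and 17.6% called higher. Their log2 fold changes ran from -0.42 to 1.01, with a median of 0.11. These 3 were Vangl2 (1.01, limma adjusted p = 0.00329), a planar cell polarity gene, Igsf8 (0.57, adjusted p = 0.000203), an immunoglobulin-superfamily partner of tetraspanins, and Dcaf8 (0.27, adjusted p = 0.0289), a ubiquitin ligase adaptor whose call was lost in 4 of 10 fits that left out 1 library and without the filter. Vangl2 averaged 0.407 FPKM without and 0.921 FPKM with NaAc, so it passed the filter only through the libraries where it was high. Among the tested protein-coding genes of the span, Slamf9 alone was called lower.

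**Figure D5:**
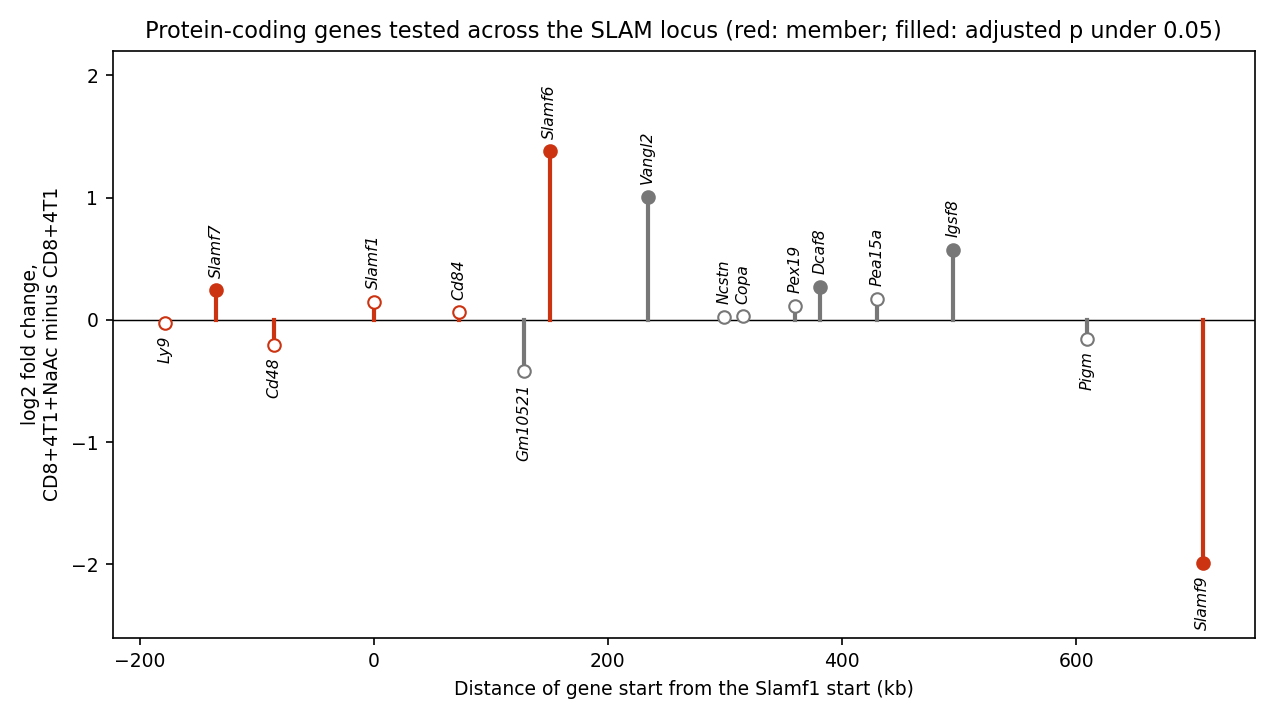
log2 fold change (CD8+4T1+NaAc minus CD8+4T1) of the tested protein-coding genes of the SLAM cluster, plotted as stems at the distance of each gene start from the Slamf1 start in kb, with members in red and filled points for genes called. Slamf6 stands highest at 1.38 and Slamf9, at the right end, lowest at -1.99.

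The genes whose pattern was most like that of the 3 most changed members were found by Pearson correlation of log2(FPKM + 0.1) over all 10 libraries, among 10626 protein-coding genes averaging 1 FPKM or more. For Slamf9 they were Anxa2, Rfc3 and Mthfd1l (r = 0.98 for each), which all fell with NaAc by about 0.5 on the log2 scale. For Slamf6 they were Syne3, Manba and Adgrg5 (r = 0.98 for each), and for Slamf7 Zfp672 (0.96), Zfyve16 (0.94) and Ercc3 (0.94). These points share libraries, depth and the contrast itself, so the correlations with Slamf9 and Slamf6 largely restate the difference between groups. The 3 genes most like Slamf7 did not pass the test between groups (limma adjusted p = 0.0671, 0.0828 and 0.116). All of these correlations are given as a description.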

How the data were processed

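RNA of 10 samples was sequenced for the authors at Novogene, with a NEBNext Ultra kit and a NovaSeq instrument. The submitters' processing notes name fastp, HISAT2 2.0.5, StringTie 1.3.3b and featureCounts 1.5.0-p3, and the methods name DESeq2 for the authors' own test. The genome build and strand setting are not given in the sources used here. The authors deposited FPKM for each sample, not pooled, and, as an other, unnormalized column, each gene's length in bases. FPKM times length came out as whole fragments for 100% of values (within 0.1 of a whole number), which gave the depth behind each value.

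Members and gene lists were chosen with earlier results of these data known. The groups were compared in limma 3.58.1 (R 4.3.3) for the 15710 genes averaging 0.5 FPKM or more. Values were taken as log2(FPKM + 0.1), a scale that understates changes of low genes, and the variances were moderated robustly along a trend. A gene was called when its p, adjusted over all genes tested by Benjamini-Hochberg, was under 0.05. Members were also compared by an exact permutation test, two-sided, over all 252 splits, whose smallest p is 0.00794. This fit was first tested on simulated data with known changes. No pair of libraries of the same group agreed within sampling noise (chi-square per degree of freedom 4.21 or more). Named genes are all members, called genes of the pathway lists and of the locus, and the 3 genes most like each of the 3 most changed members. Uncalled pathway genes and single markers are named beside the list they belong to, some chosen after their values were seen. Some genes of the lists are counted in them and are not reported here by themselves. Marker lists were also read for B cells (2 of 6 tested, none called, sums 3.93 to 4.91 FPKM without and 4.55 to 6.28 FPKM with NaAc), mast cells and basophils (0 of 4 tested, 0.463 to 1.45 and 0.193 to 1.60 FPKM) and neutrophils (S100a8 higher, S100a9 at 0, 0.505 to 1.12 and 2.14 to 4.56 FPKM).

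Alternatives were pseudocounts of 1 and 0.01, no filter, a mean of at least 5 FPKM, 3 rescalings (same total, median ratio, T cell markers), limma without trend and robust moderation, array weights, the replicate number as a block, protein-coding genes alone, voom on the recovered fragments, replicate 1 left out of both groups, and each sample left out in turn. Promoter sequences are from RefSeq (GRCm38.p6). Figures were drawn with matplotlib 3.10.9.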

Additional observations from a re-analysis of the deposited data

Results flagged for a closer look

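Among 22 groups of 5 values checked (the 9 genes, the depth and the number of genes above 0), 4 held a sample set apart from the others by a gap of more than 0.71 of the range, where chance gives about 1.1. Slamf9 in CD8+4T1+NaAc replicate 1 was at 0.267 FPKM, against 1.17 to 1.70 FPKM in the other 4. The same library had 20233 genes above 0 FPKM, against 24681 to 25088. CD8+4T1 replicate 1 had 22291 genes above 0 FPKM, against 23786 to 24054. CD8+4T1+NaAc replicate 2 referred to 18853726 fragments, against 16503701 to 17098249. Without replicate 1 of both groups the log2 fold change of Slamf9 was -1.67, and the gene was still called, as were 44.4% of all genes in that fit.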

How the results depend on the processing

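Slamf6, Slamf9 and Sh2d2a kept their direction and their call in every alternative that tested them. Their log2 fold changes ranged from 0.72 (pseudocount 1) to 1.54, from -2.11 to -1.35 and from 0.23 to 0.41, and with 1 sample left out from 1.28 to 1.49, from -2.16 to -1.58 and from 0.21 to 0.25. Never called, Ly9 turned to 0.15 with the same total, 0.15 with scaling to T cell markers, 0.051 with array weights and 0.084 without replicate 1, and ran from -0.082 to 0.050 with 1 sample left out. Sh2d1a turned to 0.028 with the same total and 0.028 with T cell scaling, and ran from -0.23 to 0.012. These 2 scalings moved the median of all genes, and relative to it Ly9 and Sh2d1a kept their sign.

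With a mean of at least 5 FPKM, 7800 genes were tested instead of 15710, Slamf6, Slamf7 and Slamf9 not among them, and 1 member instead of 4 and 3733 genes instead of 5742 were called. Leaving out 1 sample gave 3 to 4 members, 4947 to 6965 genes across the table and 7 to 12 of the pathway genes. Of all called genes 48.1% were higher, against 77.9% with the same total, 79.2% with T cell scaling and 33.7% with a mean of at least 5 FPKM. The cause was not tested.

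The replicate numbers did not pair the samples (correlation of same-numbered deviations -0.03 to 0.07, and 2 of 5 numbers matched best with their own). With the replicate block 3 members and 5399 genes were called, and Slamf7 had a limma adjusted p of 0.0850. The block left 7 of the pathway genes called, and the calls of Arhgef7, Nck1 and Cd2 were lost. Depth limits Slamf9 with NaAc, Sh2d1b1, Sh2d1b2, Slamf8 and Cd244a, which rest on few fragments.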

Other observations

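Within groups, after the mean of each group was taken out, the highest correlation between members over 10 samples was that of Slamf1 and Sh2d1a (Pearson r = 0.75, and 0.81 over 8 samples without replicate 1 of both groups). It was followed by Slamf9 and Cd48 (0.69 and 0.57) and by Slamf7 and Sh2d2a (0.67 and 0.48). Without replicate 1 the highest was that of Slamf6 and Slamf9 (0.27 with and 0.82 without it). With Sh2d1a, Ly9 had r = -0.48 and -0.63, Slamf7 -0.28 and -0.026, Cd84 0.31 and 0.46, Slamf6 0.020 and 0.46, Slamf9 -0.41 and 0.48, and Cd48 -0.43 and 0.018. The lowest correlation was that of Slamf6 and Slamf7 (-0.53 and -0.80). These are descriptions over libraries that share depth and scaling, among 36 pairs of members, and the pairs were picked after their values were seen.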
